A study of Mustela putorius furo and Mus musculus with 4 samples.

Results

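Serpins and plasminogen activators form 1 network of secreted and membrane-bound genes, of which 9 were followed here among the 13373 gene symbols that ferret and mouse astrocytes share. The activators are Plat, which encodes tissue plasminogen activator (tPA), and Plau, which encodes urokinase (uPA). Plaur encodes the cell-surface receptor of urokinase, and Plg encodes plasminogen, the inactive precursor of the protease plasmin. The other 5 members are serpins, proteins of 1 shared fold that are named after serine protease inhibition. Serpine2 (protease nexin-1), Serpini1 (neuroserpin) and Serpind1 (heparin cofactor II) inhibit proteases, whereas Serpinf1 (pigment epithelium-derived factor, PEDF) and Serpinh1 (HSP47, a collagen chaperone) do not. The genes were chosen by symbol with earlier results of the ferret and mouse comparison known, and the row of a symbol with several rows was selected on its species mean, although 0 of the 9 had several rows in either species. Their differences between species are therefore given as a description, with sizes and errors and without p-values.

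Plasminogen activation is a proteolytic cascade. The activators cut plasminogen into plasmin, which degrades fibrin and matrix proteins, and inhibitory serpins trap the activators or plasmin in complexes that endocytic receptors of the LDL receptor family remove. In the brain, tPA and neuroserpin are best known from neurons and synapses, protease nexin-1 is a well-known secreted product of glia, and plasminogen in the circulation comes mainly from the liver.

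Expression was measured in 2 libraries of ferret and 2 libraries of mouse cortical astrocytes. The ferret (Mustela putorius furo) cultures came from sable animals at postnatal day 1 and the mouse cultures from wild-type ICR animals at postnatal day 1 to 3. Cells of both species grew as mixed glia for 14 days with 10% fetal bovine serum, were shaken to detach other glia and replated, and then spent the last days before RNA extraction without serum, in a medium that held transferrin, albumin, putrescine, progesterone, selenite, N-acetyl cysteine and heparin-binding EGF-like growth factor. Pups were pooled for each mouse flask, whereas the cells of a ferret pup were spread over several flasks. Whether the duplicates of a species were separate cultures is not given in the sources used here. The errors, and the p-values that rest on them, therefore reflect the spread between these libraries only. Species, gene annotation and culture cannot be told apart in this design, and in RNA from whole cultures fewer cells of a type and less RNA per cell cannot be told apart.

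Values are FPKM, fragments scaled by the exon length of a gene and by the mapped fragments of a library. FPKM is a level per length, so genes can be compared within a library. In the lowest mouse values 1 fragment was worth 0.0316 and 0.0262 FPKM on a transcript of 1 kb, which gave depths of about 31600000 and 38200000 fragments in the 2 mouse libraries. For the ferret libraries the FPKM values gave a ratio of depths, 1.17 for replicate 1 against replicate 2, and ferret read counts were not used here. A log2 difference is ferret minus mouse on the log2(FPKM + 1) scale, with its standard error (SE) from limma. The pseudocount of 1 understates differences of low genes. Over the 10204 genes with a mean of at least 1 FPKM in either species, the median log2 difference was -0.35 with FPKM as deposited, -0.01 with the libraries rescaled to their mean sum and 0.05 after quantile normalization, so each member is also given relative to this median. The labelled cell type was checked on 11 astrocyte markers, whose median log2 difference was -1.34. Of these, 7 were called lower and 1, S100b, higher in ferret astrocytes (against 30.1% and 13.1% of all genes). After rescaling, 5 were called lower and 2 higher (against 21.7% and 19.1%), with a median of -0.95. Gfap, the intermediate filament of astrocytes, measured 1481 and 1522 FPKM in ferret, against 1429 and 1546 FPKM in mouse libraries. The water channel gene Aqp4 stood at 24.8 and 21.8 against 202 and 209.9 FPKM. Slc1a2, the glutamate transporter GLT-1, was near 0 in ferret astrocytes, at 0.133 and 0.178 FPKM against 47.1 and 51.8 FPKM. The 11 markers summed to 3721 and 3834 FPKM in ferret, against 3778 and 4096 FPKM in mouse libraries, sums made up mostly by Gfap and Aldoc.

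Of the 9 members, 7 passed the limit of 1 FPKM, and the ferret and mouse libraries of these 7 did not overlap, as was so for 94.1% of all genes tested. With a gene called at an adjusted p under 0.05 and a log2 difference beyond 1, Serpini1 and Plau were called higher in ferret astrocytes (2 of 7, against 13.1% of all genes tested) and Serpinf1, Plaur and Plat lower (3 of 7, against 30.1%). After rescaling of the libraries to their mean sum, Plat was no longer beyond 1, which left 2 members called higher (against 19.1% of all genes) and 2 called lower (against 21.7%). The members were picked with this contrast in view, so nothing is read from these shares. Serpind1 and Plg stayed under the limit in both species. The plot of FPKM by library shows all 9 genes.

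**Figure D1:**
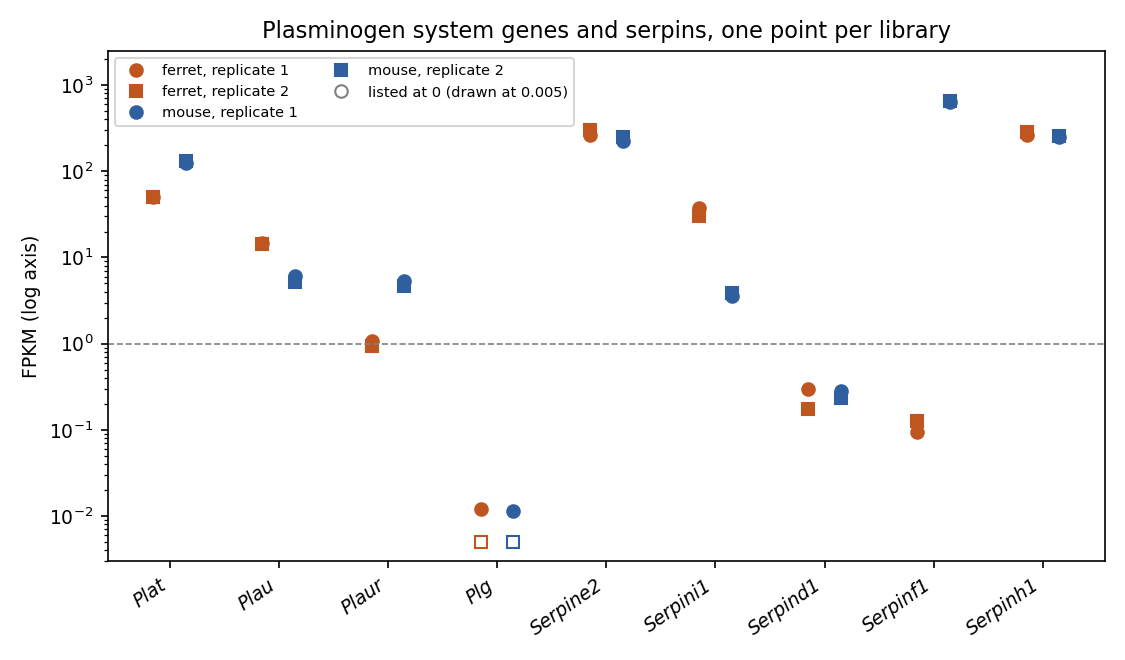
FPKM of the 9 genes in each library on a log axis, with circles for replicate 1 and squares for replicate 2, ferret in orange and mouse in blue. The dashed line marks 1 FPKM and open symbols mark values listed at 0; Serpinf1 spans the widest range, from 0.0937 FPKM in a ferret library to 653 FPKM in a mouse library, and Serpinh1 and Serpine2 lie close together in both species.

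The 2 activators differed in opposite directions. Plat measured 50.3 and 50.4 FPKM in ferret, against 123 and 130.1 FPKM in mouse libraries. Both mouse libraries were thus more than 2 times above both ferret libraries, and the 2 ferret values were almost the same. Ferret astrocytes averaged 50.4 ± 0.132 FPKM (SD, n = 2) and mouse astrocytes 127 ± 4.68 FPKM (SD, n = 2), which gave a log2 difference of -1.31 (SE 0.058), or -0.97 relative to the median of all genes. Plau measured 14.6 and 14.3 FPKM in ferret, against 6.06 and 5.19 FPKM in mouse libraries. Here the ferret libraries were the higher ones, by 2.58-fold between the means of 14.5 ± 0.234 (SD, n = 2) and 5.62 ± 0.615 FPKM (SD, n = 2). The log2 difference of Plau was 1.23 (SE 0.080), or 1.58 relative to the median. The mouse genes lie on GRCm38 at chromosome 8 from 22757727 to 22782844 on the plus strand for Plat, with 13 exonic regions, and at chromosome 14 from 20836660 to 20843385 on the plus strand for Plau, with 11 exonic regions.

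Plaur, whose product anchors urokinase on the cell surface, was lower in ferret astrocytes although its ligand was higher there. It measured 1.07 and 0.927 FPKM in ferret, against 5.32 and 4.68 FPKM in mouse libraries. The ferret values stood on either side of the limit of 1 FPKM, and the gene passed through its mouse level. Between the means of 0.996 ± 0.098 (SD, n = 2) and 5.003 ± 0.451 FPKM (SD, n = 2) the difference was 5.02-fold, and the log2 difference was -1.59 (SE 0.086), or -1.24 relative to the median. With a pseudocount of 0.1 the log2 difference of Plaur was -2.22. On GRCm38 the mouse gene spans chromosome 7, 24462484 to 24475968 (plus strand). Microglia are a known source of urokinase receptor, and microglial markers moved the same way. The 13 microglial markers reported here were all called lower in ferret astrocytes (against 30.1% of all genes). Most of them, such as Csf1r and C1qb, had a ferret mean under 1 FPKM and passed the limit through their mouse level. Lower was the only call open to those markers, so nothing is read from this share. The 13 markers summed to 11.02 and 10.1 FPKM in ferret, against 735 and 709.6 FPKM in mouse libraries. Cx3cr1 is listed at 0 in both ferret libraries. The part of microglial RNA in the levels of Plaur was not tested.

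Plg was hardly detected in either species. It had 0.0122 FPKM in ferret replicate 1 and is listed at 0 in ferret replicate 2, and it had 0.0113 FPKM in mouse replicate 1 and is listed at 0 in mouse replicate 2. The mouse values amount to about 1.0 and 0 fragments on its longest annotated transcript. Both species thus expressed the 2 activators with the transcript of their substrate at or near 0, and no difference of Plg was detectable at this depth. On GRCm38 the mouse gene spans chromosome 17, 12378608 to 12419385 (plus strand) and overlaps Slc22a3 on the other strand.

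Serpine2 was the most abundant of the 3 inhibitory serpins in both species. It reached 261 and 298 FPKM in ferret, against 224 and 251 FPKM in mouse libraries. The highest mouse library came within 10 FPKM of the lowest ferret library, without overlap. Ferret astrocytes averaged 279 ± 26.1 FPKM (SD, n = 2) and mouse astrocytes 238 ± 19.2 FPKM (SD, n = 2), which gave a log2 difference of 0.23 (SE 0.081), or 0.58 relative to the median of all genes. Its replicates differed by 0.19 in ferret and 0.16 in mouse astrocytes (absolute log2 difference), which is close to the difference between species and above the median of all genes, 0.081 in ferret and 0.065 in mouse astrocytes. On GRCm38 the mouse gene spans chromosome 1, 79794197 to 79861180 (minus strand).

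Serpini1, the inhibitor of tPA, had the largest excess in ferret astrocytes of the 9 genes. It measured 37.2 and 30.3 FPKM in ferret, against 3.57 and 3.86 FPKM in mouse libraries. The means of 33.8 ± 4.84 (SD, n = 2) and 3.72 ± 0.205 FPKM (SD, n = 2) differed by 9.08-fold, and the log2 difference was 2.88 (SE 0.095), or 3.22 relative to the median. The ferret replicates differed by 0.285 on the log2 scale, the widest gap between duplicates among the members and far less than the difference between species. On GRCm38 the mouse gene spans chromosome 3, 75557547 to 75643495 (plus strand), and overlaps Gm37672 on the same strand. Neurons and oligodendrocyte lineage cells were looked for beside this gene. Of 7 neuronal markers, 4 were tested, of which Syt1, Dcx and Gad1 were called higher in ferret astrocytes (against 13.1% of all genes). The list summed to 28.2 and 28.1 FPKM in ferret, against 32.4 and 33.7 FPKM in mouse libraries. Most of these sums came from Map2, which was not called and stood at 18.8 and 19.0 FPKM in ferret against 30.4 and 31.3 FPKM in mouse libraries. Rbfox3, too low to be tested, stood at 0 and 0.035 FPKM in ferret against 0.0667 and 0.0839 FPKM in mouse libraries. Of the 6 oligodendrocyte lineage markers reported here, 5 were tested. Sox10 and Mbp were called higher, with 0 called lower (against 13.1% and 30.1% of all genes). After rescaling 3 were called higher and 0 lower (against 19.1% and 21.7%), since Cnp went from a log2 difference of 0.87 to 1.25. The 6 summed to 141 and 163 FPKM in ferret, against 58.8 and 59.7 FPKM in mouse libraries, mostly from Cnp. Olig2, a transcription factor of the lineage, was not called and stood at 4.92 and 5.18 FPKM in ferret against 9.62 and 9.80 FPKM in mouse libraries. Their part in the level of Serpini1 was not tested.

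Serpind1, a thrombin inhibitor of plasma, was low in all libraries and did not separate the species. It measured 0.297 and 0.174 FPKM in ferret, against 0.279 and 0.233 FPKM in mouse libraries, so that the mouse values lay between the ferret values. The mouse levels correspond to about 19.4 and 19.5 fragments on its longest annotated transcript. On GRCm38 mouse Serpind1 spans chromosome 16, 17331371 to 17343575 (plus strand), and overlaps Pi4ka, a gene of the minus strand.

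Serpinf1 differed most of the 9 genes. It measured 0.0937 and 0.128 FPKM in ferret, against 629.8 and 653 FPKM in mouse libraries. Every mouse library was thus far above every ferret library. The means of 0.111 ± 0.0244 (SD, n = 2) and 641 ± 16.6 FPKM (SD, n = 2) differed by 5779.8-fold, a ratio whose ferret counting error was not analysed here. It was the 31st of the 13373 shared symbols by mean FPKM in mouse astrocytes and the 10815th in ferret astrocytes, and it alone made 0.210% and 0.212% of all FPKM over shared symbols in the mouse duplicates. On the log2 scale Serpinf1 differed by -9.18 (SE 0.061), or -8.83 relative to the median, and by -11.58 with a pseudocount of 0.1. On GRCm38 the mouse gene spans chromosome 11, 75409769 to 75422701 (minus strand), with 9 exonic regions and 8 annotated transcripts. The completeness of the ferret gene model was not tested. Meningeal fibroblasts are a known source of PEDF, and most markers of these cells were lower in ferret astrocytes too. Of 11 such markers, 10 were tested, and 9 were called lower and 0 higher in ferret astrocytes (against 30.1% and 13.1% of all genes). The list summed to 128 and 113 FPKM in ferret, against 1111 and 1064 FPKM in mouse libraries. Among them Col3a1 measured 1.60 and 1.43 FPKM in ferret, against 402 and 375 FPKM in mouse libraries, and Slc6a13 is listed at 0 in both mouse libraries. Pdgfra went the other way, at 3.07 and 3.23 FPKM in ferret against 1.64 and 1.23 FPKM in mouse libraries, and it was called higher after rescaling (log2 difference 1.04). The part of these cells in the level of Serpinf1 was not tested. Of 9 markers of endothelial cells and pericytes, 4 were tested. Cdh5, Pdgfrb and Tek were called lower and Kcnj8 was called higher in ferret astrocytes (against 30.1% and 13.1% of all genes). This list summed to 16.8 and 16.2 FPKM in ferret, against 49.5 and 48.3 FPKM in mouse libraries, with Pecam1, Cdh5, Tek and Rgs5 listed at 0 in both ferret and Cldn5 in both mouse libraries.

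Serpinh1 differed least of the 7 members above the limit. It reached 260.0 and 286 FPKM in ferret, against 251 and 254 FPKM in mouse libraries. The lowest ferret value exceeded the highest mouse value by less than 10 FPKM, while the 2 ferret values were more than 20 FPKM apart. The log2 difference was 0.11 (SE 0.065), or 0.46 relative to the median of all genes. On GRCm38 the mouse gene spans chromosome 7, 99345376 to 99353239 (minus strand). The 5 serpins together summed to 558 and 615 FPKM in ferret, against 1109 and 1162 FPKM in mouse libraries, whereas the 3 inhibitory ones summed to 298 and 328 FPKM in ferret, against 228 and 256 FPKM in mouse libraries.

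**Figure D2:**
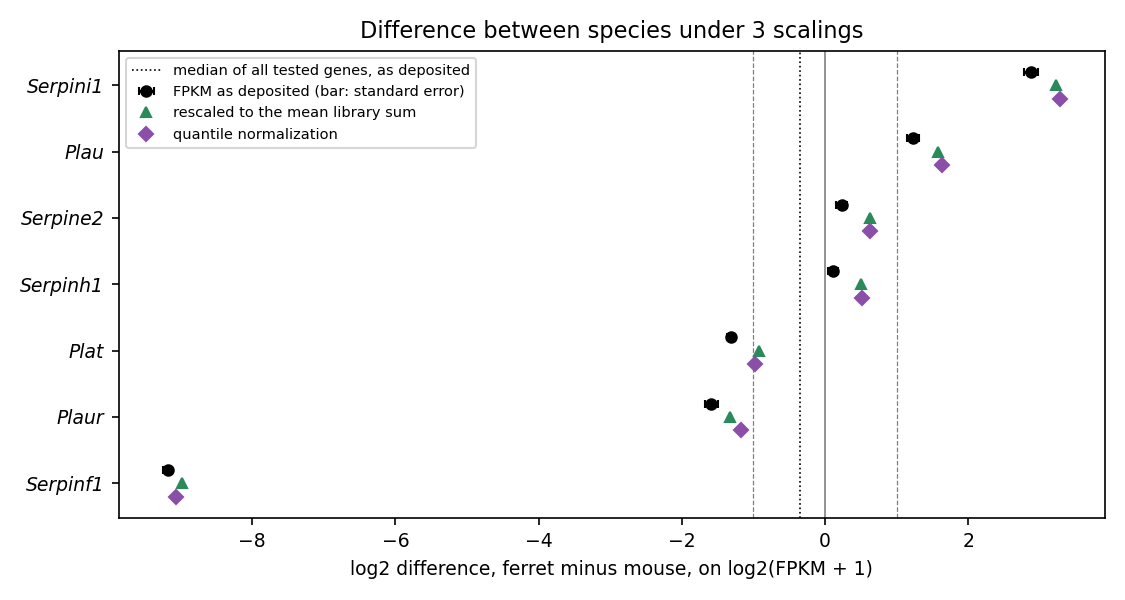
Log2 difference, ferret minus mouse on the log2(FPKM + 1) scale, of the 7 genes above 1 FPKM with FPKM as deposited (black, bar: standard error), after rescaling (green) and after quantile normalization (purple). The dotted line is the median of all tested genes, -0.35, and the dashed lines mark -1 and 1. Both rescalings moved each gene to the right, and no gene changed sign. Plat went from -1.31 to -0.93 and -0.97, across the dashed line at -1.

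The order of levels differed between the species. In ferret astrocytes Serpine2 and Serpinh1 came first with overlapping values, followed by Plat, Serpini1, Plau, Plaur, Serpind1, Serpinf1 and Plg, each separated from the next. In mouse astrocytes Serpinf1 came first, followed by Serpinh1, Serpine2 and Plat, then by Plau and Plaur with overlapping values, and by Serpini1, Serpind1 and Plg. Serpinh1 and Serpine2 were adjacent in the mouse libraries too, at 251 and 254 against 224 and 251 FPKM. Overlap was judged across the duplicates of a species. Within a library, the ratio of Serpine2 to Serpinh1 was 1.003 and 1.04 in ferret and 0.892 and 0.991 in mouse libraries. Plau was above Plaur within each mouse library, 1.14 and 1.11 times.

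Ratios of 2 genes within a library do not depend on the scaling of libraries, although they still depend on the gene models. Plat exceeded Plau 3.43 and 3.52 times in ferret, against 20.4 and 25.1 times in mouse libraries. Transcripts of both activators were thus closer to balance in ferret astrocytes. Plau exceeded Plaur 13.7 and 15.4 times in the ferret libraries but only 1.14 and 1.11 times in the mouse libraries. The ratio of ligand to receptor was therefore 13.0 times higher in ferret astrocytes. Serpine2 exceeded Plat 5.19 and 5.90 times in ferret, against 1.82 and 1.93 times in mouse libraries. Serpini1 reached 0.740 and 0.601 of the level of Plat in ferret, but 0.0289 and 0.0297 of it in mouse libraries. All of these ratios separated the species without overlap, by more than the gap between duplicates. An exact permutation test of 2 against 2 libraries cannot give a p under 0.333, and none was run on genes chosen for this contrast.

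**Figure D3:**
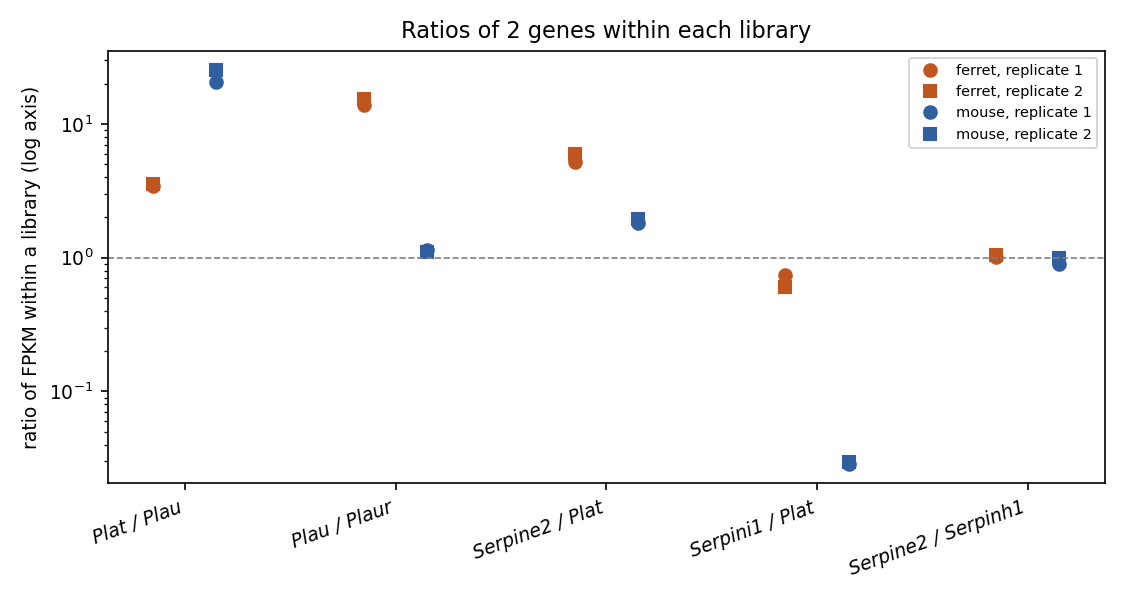
Ratio of the FPKM of 2 genes within each library on a log axis, with circles for replicate 1 and squares for replicate 2, ferret in orange and mouse in blue. The dashed line marks equal levels; Serpini1 against Plat lies furthest apart, at 0.601 to 0.740 in ferret and 0.0289 to 0.0297 in mouse libraries, and Serpine2 against Serpinh1 lies near 1 in all 4 libraries.

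Other shared serpin symbols were read beside the 9 genes, 20 of which are reported here. Of these, 17 had a mean under 1 FPKM in both species, 8 are listed at 0 in both ferret libraries (Serpina5, Serpina6, Serpina7, Serpina9, Serpina11, Serpina12, Serpinb12 and Serpinb13) and 3 in both mouse libraries (Serpina11, Serpinb11 and Serpinb13). The other 3 were called lower in ferret astrocytes (against 30.1% of all genes). They are not the whole family, so nothing is read from their shared direction. Serping1, the C1 inhibitor of the complement and contact systems, stood at 8.22 and 8.25 FPKM in ferret against 51.3 and 51.6 FPKM in mouse libraries (log2 difference -2.51, SE 0.060, adjusted p = 2.15e-10 by limma). Serpinb9, an intracellular inhibitor of granzyme B, measured 1.71 and 1.80 FPKM in ferret, against 14.7 and 14.8 FPKM in mouse libraries (log2 difference -2.52, SE 0.072, adjusted p = 6.54e-10 by limma). Serpinb8, another intracellular serpin, measured 5.70 and 6.42 FPKM in ferret, against 15.2 and 12.1 FPKM in mouse libraries (log2 difference -1.05, SE 0.104, adjusted p = 5.59e-06 by limma). Its difference was -0.70 after rescaling, no longer beyond 1, and likewise -0.63 after quantile normalization, -0.98 without ferret replicate 1 and -0.90 without mouse replicate 1.

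Genes that bind or clear the activators and their complexes split between the species. Of 18 listed genes, 13 had a shared symbol and 10 were tested. Of these, 3 were called higher and 4 lower in ferret astrocytes (against 13.1% and 30.1% of all genes). The list had a median log2 difference of 0.02 against -0.35 for all genes tested. Vldlr, a receptor that takes up complexes of activators with serpins, measured 85.3 and 92.7 FPKM in ferret, against 4.53 and 3.96 FPKM in mouse libraries (log2 difference 4.10, SE 0.075, adjusted p = 5.27e-11 by limma). The related receptor Lrp8 measured 40.4 and 45.0 FPKM in ferret, against 12.5 and 13.9 FPKM in mouse libraries (log2 difference 1.62, adjusted p = 2.05e-08 by limma). Lrpap1, the chaperone of this receptor family, measured 265 and 279 FPKM in ferret, against 102 and 114 FPKM in mouse libraries (log2 difference 1.33, adjusted p = 3.65e-08 by limma). The third receptor of the family in the list, Lrp1, was lower in ferret astrocytes, at 22.9 and 22.8 against 81.4 and 76.7 FPKM (log2 difference -1.75, adjusted p = 2.11e-09 by limma). Mrc2, a collagen receptor that associates with the urokinase receptor, measured 1.52 and 1.49 FPKM in ferret, against 54.4 and 52.2 FPKM in mouse libraries (log2 difference -4.44, adjusted p = 1.94e-11 by limma). Itgb1, the integrin beta-1 chain, and Thbs1, which encodes thrombospondin-1, were the other genes called lower, by log2 differences of -2.10 and -1.39. Cpb2 and Klkb1, genes of plasma proteins that act on fibrin breakdown and contact activation, are listed at 0 in both ferret libraries and stood under 0.14 FPKM in the mouse libraries. Vtn, Anxa2, S100a10, Plgrkt and Itgb3 had no shared symbol and were not analysed here.

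**Figure D4:**
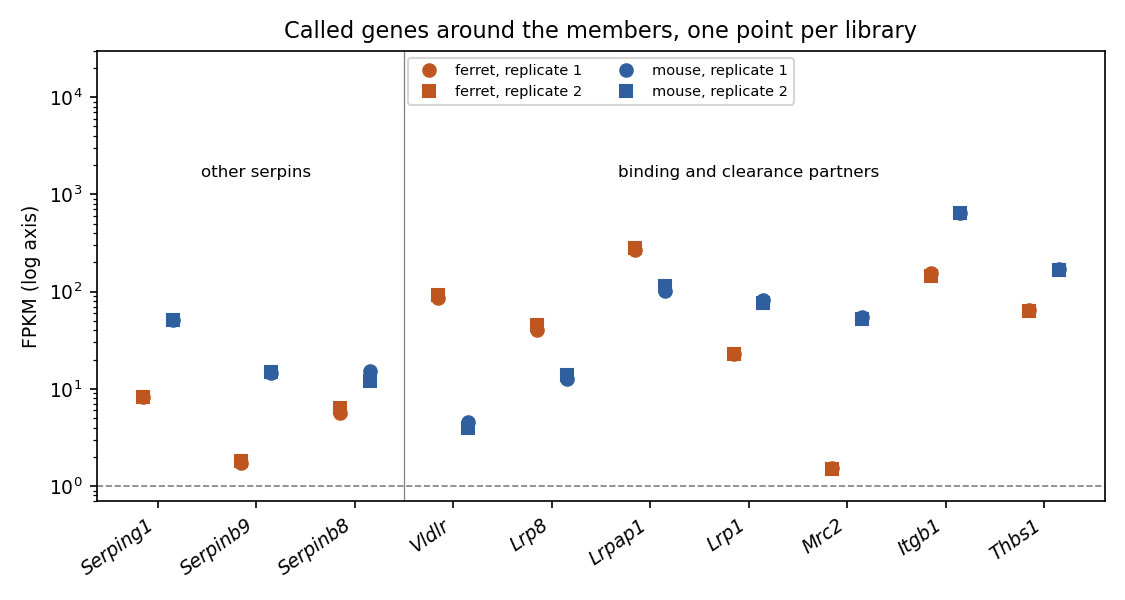
FPKM of 3 called serpins outside the 9 genes (left) and of the called binding and clearance genes (right) in each library on a log axis, with circles for replicate 1 and squares for replicate 2, ferret in orange and mouse in blue. The dashed line marks 1 FPKM; Vldlr, Lrp8 and Lrpap1 were higher in ferret libraries and the other 7 genes were higher in mouse libraries.

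Substrates of plasmin and of the activators differed in both directions. Of 16 shared genes of this list 11 were tested, 7 were called lower and 2 higher (against 30.1% and 13.1% of all genes), and the list had a median log2 difference of -2.17 against -0.35 for all genes. Bdnf, whose precursor plasmin can cut, measured 0.0472 and 0.138 FPKM in ferret, against 11.2 and 10.3 FPKM in mouse libraries (log2 difference -3.43). The growth factor Pdgfd, activated by urokinase, measured 0.225 and 0.264 FPKM in ferret, against 18.7 and 18.9 FPKM in mouse libraries (log2 difference -3.99). Bdnf and Pdgfd passed the limit of 1 FPKM through their mouse levels, so lower was the only call open to them. Pdgfc, a relative of Pdgfd and a substrate of tPA, had 2.58 and 2.31 against 11.5 and 12.3 FPKM (log2 difference -1.90). Dcn, a matrix proteoglycan that is also in the fibroblast list, had a log2 difference of -3.99. The laminin chain Lamc1 was higher in ferret astrocytes, at 98.5 and 103 against 29.4 and 28.3 FPKM (log2 difference 1.77, adjusted p = 1.81e-09 by limma). Mmp9 was also called higher, from low levels of 1.725 and 1.497 against 0.0293 and 0.149 FPKM. Of the fibrinogen genes Fga and Fgg are listed at 0 in both ferret libraries. They were near 0 in the mouse libraries too, at 0.0305 and 0 FPKM for Fga and 0.0190 and 0.0318 FPKM for Fgg.

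Thrombin is the main target of Serpind1 and a target of Serpine2. Of 11 shared genes around thrombin 7 were tested, 4 were called lower (against 30.1% of all genes) and 0 higher in ferret astrocytes, and the list had a median log2 difference of -1.02 against -0.35 for all genes. After rescaling 3 were called lower, since F3, the tissue factor gene, went from -1.02 to -0.63. The thrombin receptor F2r differed little, at 65.7 and 65.7 FPKM in ferret against 56.4 and 60.6 FPKM in mouse libraries, which gave a log2 difference of 0.17 that was under the limit of 1. Thbd, which encodes thrombomodulin, measured 0.252 and 0.295 FPKM in ferret, against 63.6 and 64.5 FPKM in mouse libraries (log2 difference -5.68). It passed the limit of 1 FPKM through its mouse level, so lower was the only call open to it. Procr, the receptor of protein C, and Tfpi, an inhibitor of the coagulation start, were lower too, by -2.08 and -1.36. Prothrombin itself (F2) is listed at 0 in both mouse libraries and in ferret replicate 1, and stood at 0.0187 FPKM in ferret replicate 2. The receptor gene F2rl3 is listed at 0 in both ferret libraries and was low in the mouse libraries, at 0.0918 and 0.0452 FPKM.

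Proposed receptors of PEDF were measured beside Serpinf1. Of 4 shared genes 3 were tested, and 2 were called lower and 0 higher (against 30.1% and 13.1% of all genes). The median log2 difference was -1.31. Plxdc2 measured 1.93 and 1.56 FPKM in ferret, against 67.7 and 68.6 FPKM in mouse libraries (log2 difference -4.66, adjusted p = 3.49e-11 by limma). Pnpla2, the lipase ATGL, had 11.2 and 12.0 against 29.4 and 30.7 FPKM (log2 difference -1.31, adjusted p = 3.23e-08 by limma), which became -0.94 after rescaling and was then no longer beyond 1.

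Collagens and their processing enzymes were measured beside Serpinh1, their chaperone. All 18 shared genes were tested, and 9 were called lower and 0 higher in ferret astrocytes (against 30.1% and 13.1% of all genes). The list had a median log2 difference of -0.84 against -0.35 for all genes. Col3a1, with the values given above, differed most (log2 difference -7.27, adjusted p = 2.38e-12 by limma). P4ha3, a subunit of prolyl 4-hydroxylase, measured 8.45 and 8.94 FPKM in ferret, against 94.6 and 103 FPKM in mouse libraries (log2 difference -3.36, adjusted p = 7.61e-11 by limma). Col1a1 had 32.2 and 28.8 against 164 and 156 FPKM (log2 difference -2.36, adjusted p = 7.13e-10 by limma). The chaperone itself, at 0.11, lay above the median of this list. After rescaling, 7 genes of the list were called lower and 1 higher (against 21.7% and 19.1% of all genes).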

How the data were processed

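The 4 libraries were polyA-selected, stranded and paired-end. Per the labels and the study's methods, the authors aligned reads with STAR 2.7.0f to the ferret and to the mouse (GRCm38) genome and deposited FPKM per gene from Cufflinks 2.2.1, on the Ensembl annotation of each species. FPKM is normalized within each library and holds no read counts. Whether strand was used in quantification is not given in the sources used here, so genes that overlap on opposite strands (Serpind1 and Pi4ka, Plg and Slc22a3) cannot be separated with certainty. Mouse Serpini1 and Gm37672 overlap on the same strand, where strand cannot separate them.

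Symbols were matched without regard to case (13373 shared). For a symbol with several rows the row with the highest species mean was used. The log2(FPKM + 1) values of genes with a mean of at least 1 FPKM in either species (10204) were fitted with limma 3.58.1 (R 4.3.3, empirical Bayes with trend). Calls required a Benjamini-Hochberg adjusted p under 0.05 over all genes tested and an absolute log2 difference above 1. The fit was tested on simulated data with independent noise of the spread seen between these duplicates. That simulation held no difference in library scale, gene model or culture, so it cannot test the calls against those. Joins and plots used Python 3.11.15 with pandas 2.3.3.

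The depth of the mouse libraries was read from the commonest FPKM times transcript length (kb) among low genes with 1 annotated transcript of over 1 kb, searched between 0.02 and 0.045. These were 0.0316 and 0.0262, taken as 1 fragment. Fragments of a gene were then estimated on its longest transcript, and are approximate. Mouse coordinates are those of GENCODE M21 on GRCm38, a release other than that of the authors. Ferret coordinates and protein sequences were not used here. The replicate numbers come from the labels alone. Same-numbered libraries did not deviate together (r = 0.01 across genes, which are not independent replicates), so they were not treated as pairs.

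The 9 members, the gene lists and the alternatives were chosen with earlier results of these data known. Adjusted p-values printed for listed genes come from the fit over all genes. Most of these genes were named for the size of their difference, so the p-values describe them and test no list. Some genes passed the limit of 1 FPKM through 1 species only, among them Serpinf1, Plaur, Thbd and most microglial markers. For such genes only 1 direction of call was open, and their p-values are not printed. Some genes of the lists are not reported here, and counts and sums of those lists cover the remaining genes. Named by rule were all members, up to 3 called genes per list and direction with the largest difference, genes at 0 in both libraries of a species, serpins with a mean of at least 10 FPKM, and the 2 genes nearest to each member in level. Of the marker lists only some of these are named. Other genes of a list are named with their values where they complete its account, a choice made with their values in view. Other settings comprised quantile normalization, a pseudocount of 0.1, no filter, rescaling to the mean library sum, a replicate block, summed rows and each library left out in turn.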

Additional observations from a re-analysis of the deposited data

How the results depend on the processing

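Of the settings tried, scaling moved the counts of called genes most. Genes called higher in ferret astrocytes rose from 1336 to 2076 after quantile normalization, while those called lower fell from 3069 to 2090, and the split was 1954 higher and 2215 lower after rescaling to the mean library sum. Of the 7 tested members, 68 of 70 values under the alternatives kept direction and side of the threshold. The other 2 belong to Plat, at -0.93 after rescaling and -0.97 after quantile normalization. With each library left out in turn, which assumes that the lone library of a species varies like the duplicates of the other, Serpinf1 ranged from -9.20 to -9.15, Plaur from -1.66 to -1.51, Plat from -1.35 to -1.28, Serpinh1 from 0.04 to 0.18, Serpine2 from 0.14 to 0.33, Plau from 1.13 to 1.32 and Serpini1 from 2.73 to 3.02. The counts over all genes ranged from 1320 to 1374 higher and from 3051 to 3096 lower. With the replicate number as a block, 1342 genes were called higher and 3072 lower, and the calls of the members did not change. Of 41 other tested genes that the naming rule picked from the lists, 403 of 410 values kept direction and side. The remaining 7, which belong to Serpinb8, Pnpla2 and Tfpi, kept their direction under a log2 difference of 1. Genes named outside this rule are not in these counts. Among them, rescaling took F3 from -1.02 to -0.63, Pdgfra from 0.77 to 1.04, Cnp from 0.87 to 1.25 and Aldoc from 0.78 to 1.17, across the threshold. Serpind1 and Plg passed no filter and have no such values. With a pseudocount of 0.1 Serpinf1 went from -9.18 to -11.58 and Plaur from -1.59 to -2.22. Low ferret levels, such as those of Serpinf1, carry no counting interval, since ferret read counts were not used here.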

Other observations

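Several mouse serpins have no shared symbol and are given as levels only. Of 43 such mouse symbols, 6 had a mean of at least 10 FPKM. Serpina3n, a secreted serpin known as a marker of reactive astrocytes, had 192 and 186 FPKM in the 2 mouse libraries, more than Plat in the same cultures. Serpinb6a had 120 and 123 FPKM. Serpina3h, Serpina3i, Serpinb9b and Serpinb6b had means of 48.0 ± 0.499, 31.7 ± 0.014, 21.6 ± 1.76 and 19.8 ± 1.30 FPKM (SD, n = 2). Copies within these duplicated rodent families can share reads, so the level of each copy is uncertain. Their likeness in sequence was not measured here. In the ferret, SERPINB1 had 30.8 and 31.8 FPKM, and mouse Serpinb1a, a member of the corresponding duplicated family, had 5.56 and 7.08 FPKM; the 2 symbols were not compared.

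The genes nearest in level to each member were found by Euclidean distance in log2(FPKM + 1) over the 4 libraries, among all genes tested. Nearest to Serpinf1 were Lcn2 (distance 0.709), with 459 and 462 FPKM in the mouse libraries and listed at 0 in both ferret libraries, and Col3a1 (1.96). Plat lay nearest to Degs1 (0.134) and Agpat3 (0.135), Plau to Erbb2 (0.125) and Uhrf1 (0.149), and Plaur to Gpc2 (0.118) and Cfap69 (0.140). Serpini1 lay nearest to Tmem17 (0.149) and Cdh6 (0.287), Serpine2 to Dynlrb1 (0.242) and Ap2m1 (0.266), and Serpinh1 to Sod1 (0.270) and Timp1 (0.304). Likeness over 4 libraries of 2 species is a likeness of levels only.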
